A study of Mus musculus with 191 samples.

Results

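Iodoform (triiodomethane) and trichlorofluoromethane are both methanes whose hydrogens are replaced by halogens: iodoform keeps a hydrogen beside its iodines, and trichlorofluoromethane, a chlorofluorocarbon once used as a refrigerant and propellant, keeps none. The series profiled the lungs of female B6C3F1 mice after exposure to 26 chemicals on Affymetrix mouse arrays, to find expression markers of chemicals that give lung tumours. The arrays described here were found by their labels of compound and dose: the 4 arrays of iodoform (93 mg/kg) and the 4 of trichlorofluoromethane (3925 mg/kg), 8 of the 133 arrays of exposed lungs, beside 58 of controls. They are set against the 4 arrays of corn oil controls of the same set. All 12 mice were gavaged with corn oil at 5 ml/kg on 5 days per week for 13 weeks from 5 weeks of age, the controls with the oil alone, and the right lung lobe was taken at 18 weeks. Each array held RNA of 1 animal. The doses of the compounds differ, and both are measured against the same 4 control arrays, so their values are given side by side with no test of one compound against the other.

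Values are deposited log values, taken here as log2, in which 0 lies near the mean of an array; a negative level is a dim probe set, not an absent transcript. A difference is the exposed mean minus the corn oil mean, with its standard error (SE), from limma fitted on all arrays of the series with a mean per group. The SE and p thus rest on the spread within all groups of the series, not within the 2 groups compared. For Hsp90b1 the SE is 0.24, though the SD was 0.77 in corn oil and 0.53 in trichlorofluoromethane. For Dnajb9 the SE is 0.18 and both SDs were 0.07. A gene is called at a Benjamini-Hochberg adjusted p under 0.05 over the 13524 genes tested.

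As background, 3 systems recur in the results. In the circadian clock, ARNTL (BMAL1) and CLOCK bind E-boxes and drive the Per and Cry genes, whose proteins repress them, as well as output genes such as Dbp, Tef and Hlf, which encode a family of bZIP factors; in lung these transcripts rise and fall over the day. In the endoplasmic reticulum, chaperones such as HSPA5 (BiP) and HSP90B1 (GRP94) fold secreted and membrane proteins, and their genes are raised by the unfolded protein response through ATF6 and XBP1. The lung is densely vascular, and TIE1 and ENG are receptors of its endothelial cells.

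The arrays carried lung transcripts at high levels: Sftpc ran from 6.60 to 7.04, Ager from 6.47 to 6.80 and Scgb1a1 from 6.42 to 6.96 over the 12 arrays. Arrays nonetheless stood apart within groups. The corn oil arrays fell in pairs, with correlations across genes of 0.994 between arrays 1 and 3 and 0.995 between arrays 2 and 4, against 0.955 to 0.962 across the pairs. Iodoform array 2 stood apart from its group, with correlations of 0.942 to 0.975 with the other 3, and an array SD of 1.44 against 1.14 to 1.28 in the other 11. Component 1 of the 12 arrays (67.9% of variance) ran from −32.8 and −30.9 in corn oil arrays 3 and 1 to 50.8 in iodoform array 2. RNA integrity was read from the beta-actin probe sets as the 3′ level minus the 5′ level, which is lower in more complete RNA: it was 0.35 ± 0.10 (SD, n = 4) in iodoform and 0.69 ± 0.17 (SD, n = 4) in corn oil, and all iodoform arrays lay below all corn oil arrays (difference −0.34; p = 0.0286 in a two-sided exact permutation test, whose lowest value for groups of 4 this is). In trichlorofluoromethane it was 0.56 ± 0.31 (SD, n = 4), a difference of −0.13 (exact permutation p = 0.486). The same measure from Gapdh differed by −0.09 for iodoform and 0.03 for trichlorofluoromethane (exact permutation p = 0.543 and 0.800). The array SD was lower in all 4 trichlorofluoromethane arrays than in corn oil (1.18 ± 0.03 against 1.24 ± 0.03, SD, n = 4 each; exact permutation p = 0.0286). Recorded RNA integrity numbers were 9.1 and 9.2 in iodoform (2 arrays have none), 8.3 to 8.8 in trichlorofluoromethane (1 has none) and 8.1 and 8.2 in corn oil arrays 1 and 3 against 9.1 and 8.7 in arrays 2 and 4. RNA integrity numbers thus separated the corn oil pairs, and their part in the values below was not tested.

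**Figure D1:**
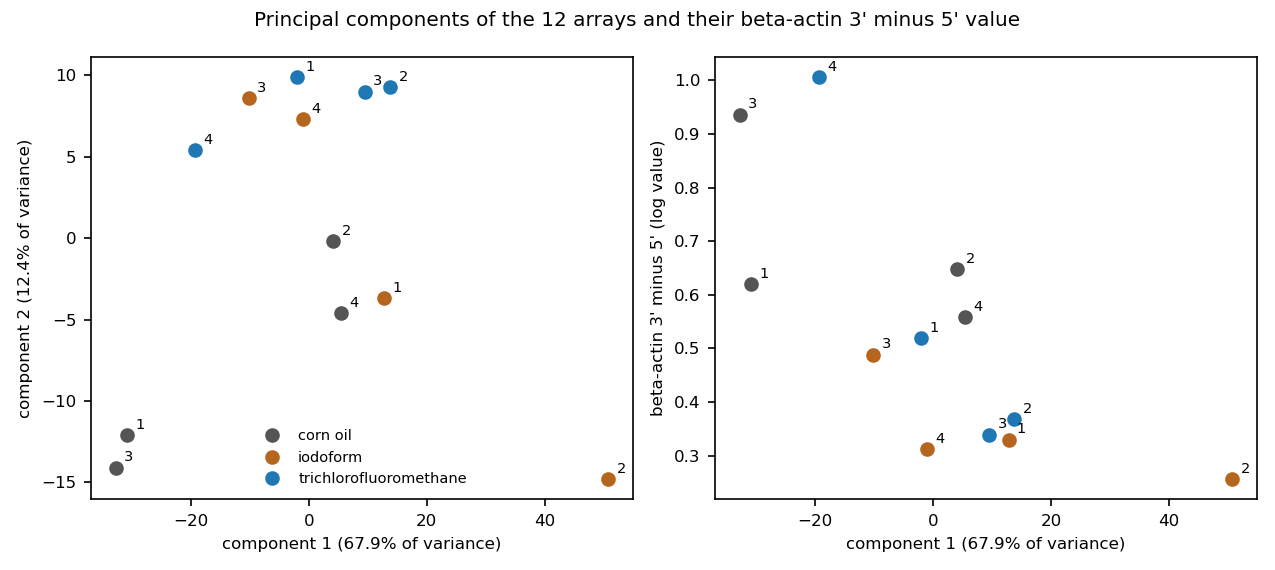
Left, the first 2 principal components (arbitrary units) of the 12 arrays over the genes tested; right, component 1 against each array's beta-actin 3′ minus 5′ value (log value). Colours mark corn oil, iodoform and trichlorofluoromethane, and digits the array number. Corn oil arrays 1 and 3 lie at the left, iodoform array 2 alone at the right at 50.8, and the 4 iodoform arrays have beta-actin values from 0.26 to 0.49, below the lowest corn oil value of 0.56.

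Trichlorofluoromethane changed 66 genes (0.488% of those tested): 26 rose (0.192%) and 40 fell (0.296%). The rises were led by Dbp, the tetraspanin Tspan4, the clock repressor Per2 and Mpst, which encodes a mitochondrial sulphurtransferase. The falls included Hsp90aa1, the elastin gene Eln, the clock activators Arntl and Clock, and 4 chaperones of the endoplasmic reticulum. The number of calls moved with single arrays: it was 4, 5, 5, 4 and 12 without corn oil array 1, corn oil array 3, or exposed array 1, 3 or 2, and 1250, 906 and 1119 without corn oil array 2 or 4 or exposed array 4. Of the 66, 55 passed in 3 of the 8 fits that left out 1 array; among these, Dbp, Per2, Arntl, Clock, Hspa5, Hsp90b1, Dnajb9, Dnajc3 and Hsp90aa1 each lost their call without corn oil array 1 or 3 or exposed array 1, 2 or 3. In limma fitted on the 8 arrays alone there were 137 calls, 3 rises and 134 falls, of which 14 were among the 66; Dbp, Per2, Arntl, Hspa5, Hsp90b1, Max and Tspan4 were not called there (adjusted p = 0.0616 to 0.272). With quantile normalization within the batch 591 genes were called, of which 433 rose and 158 fell.

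Of the clock genes, 2 activators fell, and a repressor and an output gene rose. Dbp was at 2.19, 2.44, 2.67 and 0.65 in the trichlorofluoromethane arrays and at 0.47, −0.06, 0.51 and −0.37 in corn oil. All 4 exposed arrays lay above all corn oil arrays, array 4 by little, as held for 4.36% of all genes tested. The difference was 1.85 ± 0.42 (SE; 3.61-fold; adjusted p = 0.0308), and it ran from 1.63 to 2.30 as each array was left out. A second Dbp probe set gave 1.60. Per2 was at 0.79, 0.60, 0.84 and 0.47 in exposed lungs and at 0.07, 0.21, −0.05 and 0.36 in corn oil. Its groups did not overlap either, and the difference was 0.53 ± 0.13 (SE; adjusted p = 0.0395), with 0.29 and 0.32 at its other probe sets.

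Arntl, the activator partner of CLOCK, was at 0.02, 0.11, −0.20 and 0.53 in trichlorofluoromethane against 0.71, 0.95, 0.70 and 1.01 in corn oil. Every exposed array was below every control, and the difference was −0.73 ± 0.18 (SE; adjusted p = 0.0400). A second, dimmer Arntl probe set gave −0.06. Clock, which encodes the other activator, was at 0.14, 0.05, −0.04 and 0.60, against 1.05, 0.53, 1.08 and 0.48. Here exposed array 4 lay above corn oil arrays 2 and 4, and the difference of −0.60 ± 0.16 (SE; adjusted p = 0.0498) was −0.32 against corn oil arrays 2 and 4 alone and −0.87 against arrays 1 and 3 alone, comparisons chosen after the pairs were seen.

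Over all genes tested 0.192% rose and 0.296% fell after trichlorofluoromethane. Of the list of clock outputs, 1 of 10 rose (Dbp) and none fell. The other bZIP factors did not pass: Tef differed by 0.57 (adjusted p = 0.0730) and Hlf by 0.43 (adjusted p = 0.0625). Usp2, a clock-driven deubiquitinase gene, differed by 0.29 (adjusted p = 0.0910), with all exposed arrays above all controls. Of the repressors, 1 of 10 rose (Per2), with Per3 at 0.42 and Nr1d1 at 0.53 (adjusted p = 0.141 and 0.261), and 9 of 10 differences lay above 0. Of the activators, 2 of 4 fell, and Rora and Npas2 stood at −0.44 and −0.39 (adjusted p = 0.182 and 0.124). The other outputs lay on either side of 0: Wee1 stood at 0.07, and Cdkn1a, Nampt, Nfil3, Fkbp5 and Tsc22d3 at −0.77, −0.53, −0.46, −0.36 and −0.35 (none called). The medians were 0.18 for repressors, −0.52 for activators and −0.14 for outputs (5 above and 5 below 0), beside 0.00 over all genes tested. The hour at which tissue was taken is not given in the sources used here, and its part in these values was not tested.

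After iodoform Clock was called, as it was after trichlorofluoromethane, and Dbp, Per2 and Arntl were not. The compounds were not tested against each other. Dbp was at 1.60 and 1.26 in iodoform arrays 1 and 2 and at −0.41 and −0.31 in arrays 3 and 4, so the group spanned more than the corn oil range, and the difference of 0.40 did not pass (adjusted p = 0.484). Tef split the same arrays the same way, with 2.82 and 2.89 against 2.17 and 2.11. Per2 differed by −0.09 (adjusted p = 0.617) and Arntl by −0.03 (adjusted p = 0.908), with exposed and corn oil arrays overlapping for both. Of the clock lists, 2 of 4 activators, none of 10 repressors and 1 of 10 outputs fell. None rose, beside 11.9% that fell and 15.6% that rose of all genes tested. The output count was near the share over all genes and is no result about that list. Clock fell by 0.44 on the log2 scale (adjusted p = 0.0324), and Rora, which encodes a nuclear receptor that drives Arntl, fell by 0.52 (adjusted p = 0.0403). Nampt, which encodes an enzyme of NAD salvage, fell by 0.56 (adjusted p = 0.0249), with iodoform array 2 at 0.02 and the others at 0.90 to 1.00. Against corn oil arrays 2 and 4 alone Clock, Rora and Nampt stood at −0.16, −0.31 and −0.30, and against arrays 1 and 3 alone at −0.72, −0.73 and −0.83. Without iodoform array 2 they stood at −0.35, −0.27 and −0.33 (adjusted p = 0.318, 0.494 and 0.385).

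**Figure D2:**
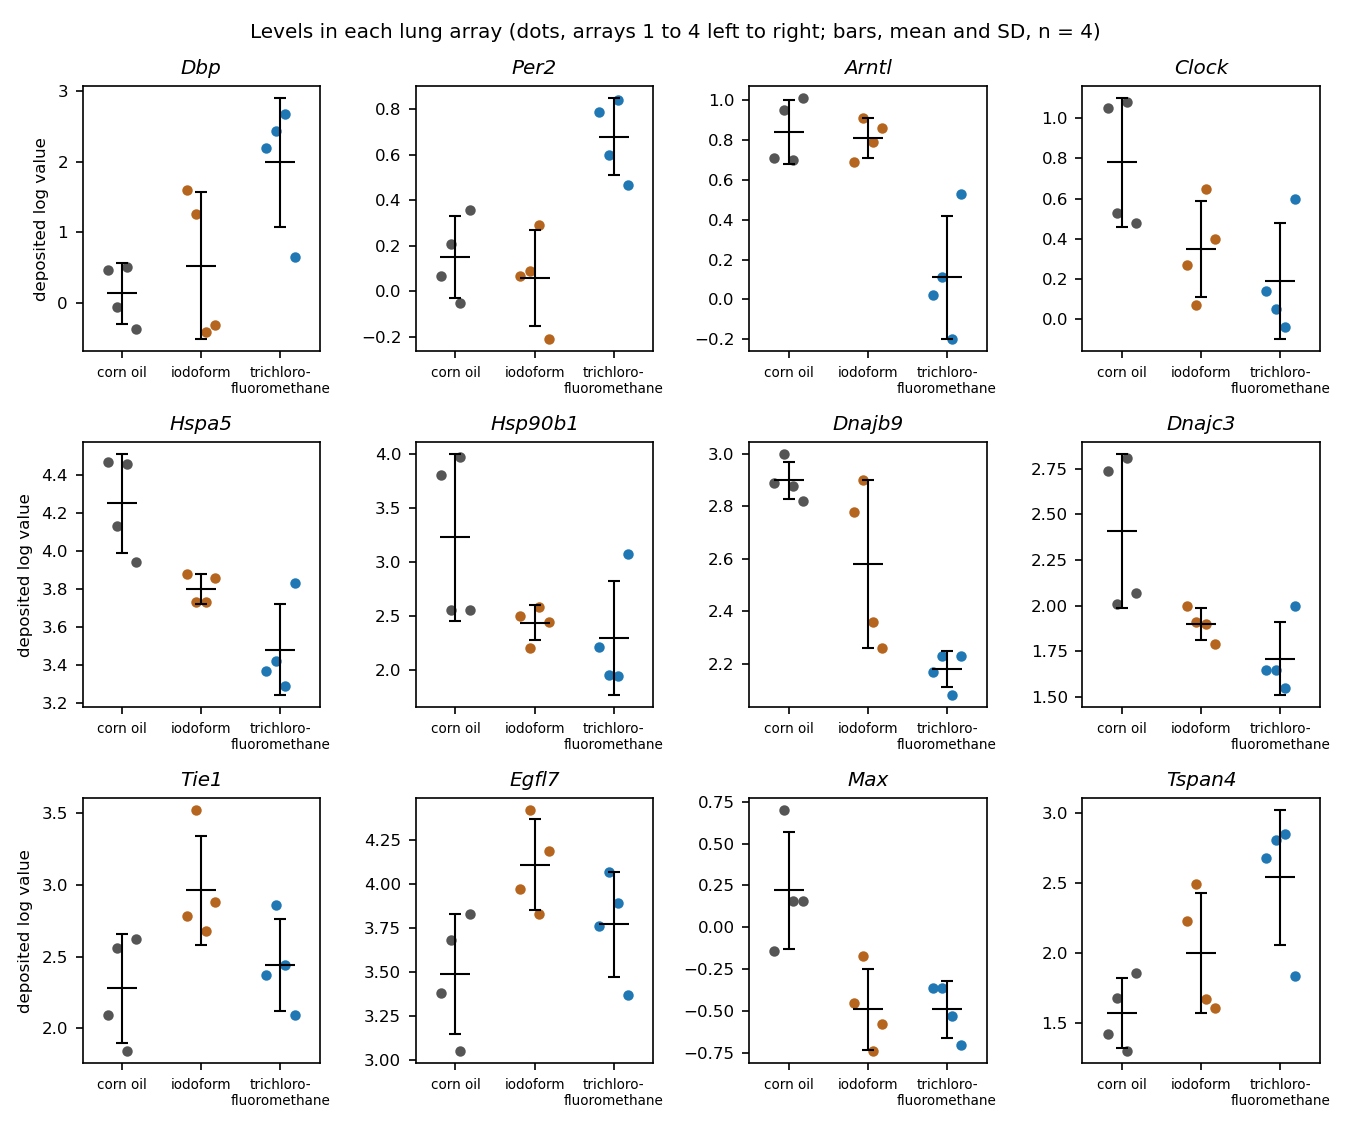
Deposited log values of 12 genes in each array of corn oil, iodoform and trichlorofluoromethane lungs (dots, arrays 1 to 4 from left to right), with the mean and SD (bars, n = 4); each panel has its own axis. In trichlorofluoromethane Dbp and Per2 lie above and Arntl, Hspa5, Dnajb9 and Dnajc3 below all corn oil arrays, and in Hsp90b1, Clock and Dnajc3 the corn oil arrays split into 1 and 3 (high) and 2 and 4 (low).

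Genes of endoplasmic reticulum chaperones were lower after trichlorofluoromethane. Of 20 in the list, 4 fell and none rose, beside 0.296% and 0.192% of all genes tested. Of the differences 18 lay below 0, and the median was −0.35, beside 0.00 over all genes tested. In 12 of the 20 all exposed arrays lay below all corn oil arrays, against 6.92% of all genes tested. The mean level of the list was 2.35 to 2.45 in the exposed arrays and 2.71 to 2.86 in corn oil.

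Many promoters of this family carry the endoplasmic reticulum stress response element, which is CCAAT and CCACG with 9 bases of any kind between them, and at which NF-Y and ATF6 bind. Both strands of the RefSeq promoter windows of GRCm38.p6 (250 bases before to 50 after a start) were searched for it. Of the 20 chaperone genes 18 have a window, and 8 of the 18 hold the element, as do 0.119% of the 32851 windows of all genes. The stretches around it are shown for 3 of the 4 genes that fell, Hspa5, Hsp90b1 and Dnajc3, and for Canx, which fell after iodoform. The window of Dnajb9 does not hold it. The other genes that hold it, Pdia6, Calr, Creld2 and Syvn1, were called for neither compound. They stood at −0.33, −0.37, −0.51 and −0.16 after trichlorofluoromethane and at 0.06, 0.09, 0.01 and 0.25 after iodoform. A link between the element and the differences was not tested. Capitals mark the fixed letters of the element (on the opposite strand, CGTGG and ATTGG), and sequences run 5′ to 3′ on the strand of the gene. The windows are Hspa5 at chr2:34772000-34772068 (plus strand, element 65 bases before the start), Hsp90b1 at chr10:86705508-86705681 (minus strand, elements 212 and 107 bases before), Dnajc3 at chr14:118937802-118937870 (plus strand, 105 bases before) and Canx at chr11:50325775-50325843 (minus strand, 145 bases before).
Hspa5: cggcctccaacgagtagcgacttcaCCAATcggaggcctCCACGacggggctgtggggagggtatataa
Hsp90b1: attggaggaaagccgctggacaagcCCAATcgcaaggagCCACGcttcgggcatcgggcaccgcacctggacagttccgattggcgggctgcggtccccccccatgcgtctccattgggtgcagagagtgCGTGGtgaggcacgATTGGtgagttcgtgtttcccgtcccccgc
Dnajc3: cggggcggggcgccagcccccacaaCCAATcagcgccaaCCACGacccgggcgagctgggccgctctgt
Canx: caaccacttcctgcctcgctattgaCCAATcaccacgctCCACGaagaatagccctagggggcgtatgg

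Hspa5, the main luminal HSP70, was at 3.37, 3.42, 3.29 and 3.83 after trichlorofluoromethane and at 4.47, 4.13, 4.46 and 3.94 in corn oil. The groups did not overlap, and the difference was −0.77 ± 0.20 (SE; 1.71-fold lower; adjusted p = 0.0494), with −0.79 at a second probe set and −0.18 at a dimmer one. Dnajb9 (ERdj4), a co-chaperone of HSPA5, was at 2.17, 2.23, 2.08 and 2.23 against 2.89, 3.00, 2.88 and 2.82. Both groups of Dnajb9 were tight and far apart, with a difference of −0.72 ± 0.18 (SE; adjusted p = 0.0395), and it was −0.73 and −0.71 against either corn oil pair. Dnajc3 (p58IPK), a co-chaperone that also restrains the kinase PERK, was at 1.65, 1.65, 1.55 and 2.00 against 2.74, 2.01, 2.81 and 2.07. Its exposed arrays lay below all controls, array 4 by little, and the difference was −0.70 ± 0.18 (SE; adjusted p = 0.0494).

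Hsp90b1 was at 2.22, 1.96, 1.95 and 3.08 after trichlorofluoromethane and at 3.81, 2.56, 3.97 and 2.56 in corn oil. The groups overlapped, and the difference of −0.92 ± 0.24 (SE; adjusted p = 0.0494) was −0.26 against corn oil arrays 2 and 4 alone and −1.58 against arrays 1 and 3 alone. The Hspa5 difference was −0.56 and −0.99, and that of Dnajc3 −0.33 and −1.06, in the same comparisons. The list median was −0.31 and −0.39 and the calls in the list 0 and 6. With the beta-actin value as a covariate the list median was −0.35 and none of the 20 was called (adjusted p = 0.0722 for Hspa5). Xbp1, the transcription factor of the response, differed by −0.52 (adjusted p = 0.0932), and its 4 exposed arrays (3.70 to 4.05) lay below all corn oil arrays (4.21 to 4.47).

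After iodoform the chaperone list was mixed: 3 of 20 fell and 1 rose, beside 11.9% and 15.6% of all genes tested. The falls were near the share over all genes and are no result about the list. Its median was −0.01, beside 0.06 over all genes tested. Those that fell were Hsp90b1 (−0.79 ± 0.24, SE; adjusted p = 0.0150), Canx, the lectin chaperone calnexin (−0.55 ± 0.17, SE; adjusted p = 0.0177), and Dnajc3 (−0.51 ± 0.18, SE; adjusted p = 0.0285). Against corn oil arrays 2 and 4 alone they stood at −0.13, −0.29 and −0.14, and against arrays 1 and 3 alone at −1.45, −0.81 and −0.87. Sdf2l1, a component of the HSPA5 chaperone cycle, rose by 0.39 (adjusted p = 0.0483). Hspa5 was at 3.88, 3.73, 3.73 and 3.86, below all corn oil arrays, with a difference of −0.45 that did not pass (adjusted p = 0.0734). In 4 of the 20 genes all iodoform arrays lay below all controls, against 4.81% of all genes tested.

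Of the heat shock list, which includes mitochondrial chaperones, 1 of 14 fell after trichlorofluoromethane and 3 of 14 after iodoform, and none rose. Over all genes tested 0.296% and 11.9% fell. Hsp90aa1, which encodes the inducible cytosolic HSP90, fell for both: it was at 4.73, 3.59, 4.63 and 3.30 in corn oil, at 2.96, 2.43, 2.36 and 3.83 in trichlorofluoromethane (−1.17 ± 0.29, SE; adjusted p = 0.0395) and at 2.97, 2.39, 3.40 and 3.14 in iodoform (−1.08 ± 0.29, SE; adjusted p = 0.00827). Corn oil arrays 1 and 3 were more than 1 unit above the others, and both exposed groups overlapped the lower pair. After iodoform the mitochondrial chaperone Hspd1 fell by 0.78 and the HSP40 gene Dnaja1 by 0.88 (adjusted p = 0.0154 and 0.0419). Dnaja1 was at 1.60 in iodoform array 2 and at 2.76 to 3.79 in the others, and without array 2 the differences of Hspd1 and Dnaja1 were −0.54 and −0.45 (adjusted p = 0.304 and 0.505). Over both compounds, 2 further probe sets of Hsp90aa1 gave differences of −1.53 to −0.96, and 2 dim ones lay between −0.31 and 0.08.

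Eln, which encodes elastin, was at 1.41, 1.81, 1.29 and 1.62 after trichlorofluoromethane against 2.24, 2.56, 2.27 and 2.39 in corn oil. The groups did not overlap, the difference was −0.83 ± 0.20 (SE; adjusted p = 0.0395), and it was −0.94 against corn oil arrays 2 and 4 and −0.72 against arrays 1 and 3. The call was lost without corn oil array 1 or 3 or exposed array 1 or 3. Eln was the 1 gene called of 23 in the list of smooth muscle and matrix genes, beside 0.296% of all genes tested that fell. Of the 23, 22 had differences below 0 (median −0.13). After iodoform Eln was at 2.55, 3.48, 2.11 and 2.32, with array 2 above every other array and a difference of 0.25 (adjusted p = 0.340).

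Of the 66 calls for trichlorofluoromethane, 4 (0.0296% of the genes tested) passed in all 8 fits that left out 1 array: Max, Kcnj15, Tspan4 and Mpst. Max, which encodes the dimer partner of MYC, was at −0.36, −0.36, −0.53 and −0.70 against −0.14, 0.70, 0.16 and 0.16 in corn oil. All exposed arrays were below all controls (−0.71 ± 0.12, SE, adjusted p = 7.64e-05), at the only probe set of the gene. That probe set is dim: the exposed mean of −0.49 lies below the median of all values (−0.386). Mpst was at 0.52, 0.43, 0.19 and 0.12 against −0.22, −0.21, −0.14 and −0.20. Its controls were tightly grouped and all exposed arrays lay above them (0.51 ± 0.08, SE; adjusted p = 2.54e-05). Tspan4 was at 2.68, 2.81, 2.85 and 1.84 against 1.42, 1.68, 1.30 and 1.86, so array 4 overlapped the controls (0.98 ± 0.17, SE; adjusted p = 0.000137).

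Kcnj15, which encodes an inward-rectifier potassium channel, was at 0.88, 0.79, 0.77 and 1.31 in trichlorofluoromethane, 1.13, 0.82, 1.44 and 1.21 in iodoform and 1.82, 1.66, 1.86 and 1.61 in corn oil. Every exposed array of either compound lay below every corn oil array (−0.80 ± 0.15, SE, adjusted p = 0.00120 for trichlorofluoromethane; −0.59 ± 0.15, SE, adjusted p = 0.00677 for iodoform). Its other 2 probe sets differed by −0.22 and −0.01 for trichlorofluoromethane and by 0.06 and −0.07 for iodoform. Tmem238, a membrane protein gene, rose after trichlorofluoromethane with the groups apart (0.51 ± 0.11, SE; adjusted p = 0.0249). Mpg, a DNA glycosylase gene that starts base excision repair, rose by 0.38 with overlapping groups (adjusted p = 0.0395). The pituitary hormone gene Tshb rose by 0.36 (adjusted p = 0.0359) at a dim level, −0.33 to 0.02 in corn oil and 0.00 to 0.31 in exposed lungs.

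Iodoform changed 3708 genes (27.4%): 2105 rose (15.6%) and 1603 fell (11.9%). Among the rises were 7 of 22 endothelial genes and 6 of 9 of MHC class II presentation, and among the falls 6 of 17 genes of nuclear RNA and splicing. The count rested on 3 arrays: it was 2 without iodoform array 2, 7 without corn oil array 1 and 9 without corn oil array 3, and 2811 to 5364 without any one of the others. It was 1 against corn oil arrays 2 and 4 alone, 15 with the beta-actin value as a covariate, and 0 in limma fitted on the 8 arrays alone, where 1665 genes had an unadjusted p under 0.05. Of the 3708 genes, 2558 passed in 5 of the 8 fits that left out 1 array, and Tie1, Irf7, Hsp90b1, Dnajc3, Hsp90aa1, Kcnj15, Mpst and Akr1c14 lost their calls without iodoform array 2 or corn oil array 1 or 3. Only 1 of the 3708 passed in all 8 fits that left out 1 array: Max (0.00739% of the genes tested), at −0.45, −0.17, −0.74 and −0.58 after iodoform. All lay below the corn oil arrays, array 2 by little, as corn oil array 1 was at −0.14 (−0.71 ± 0.12, SE, adjusted p = 8.09e-05). The level was dim here too, with an iodoform mean of −0.49.

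**Figure D3:**
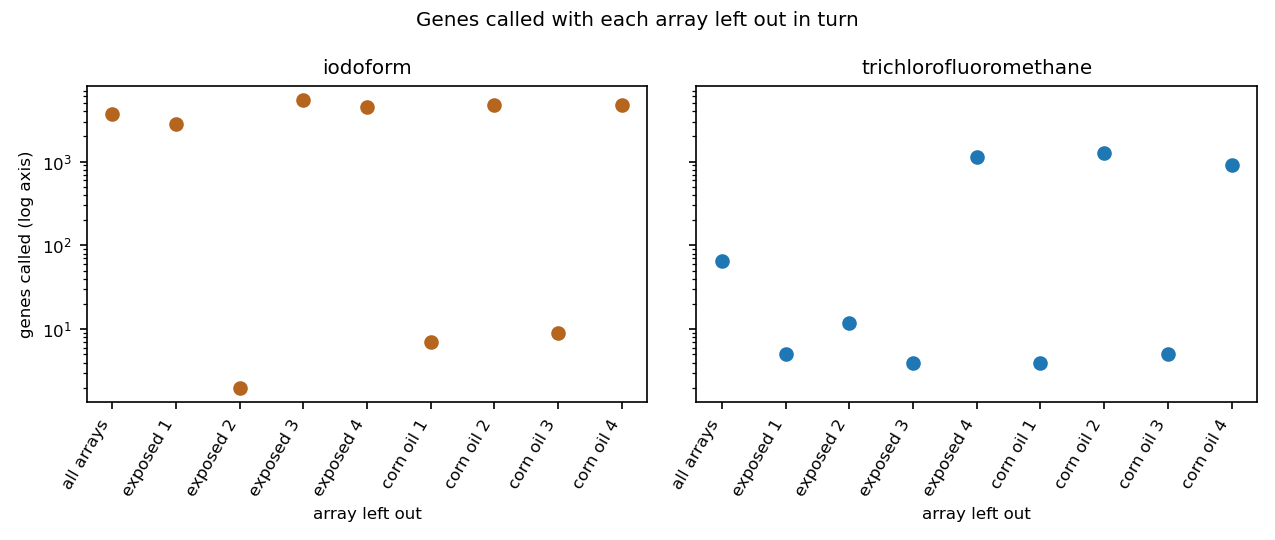
Number of genes called (adjusted p under 0.05, log axis) for iodoform (left) and trichlorofluoromethane (right) with all arrays and with each exposed or corn oil array left out. Iodoform calls fall from 3708 to 2, 7 and 9 without iodoform array 2 or corn oil array 1 or 3, and trichlorofluoromethane calls run from 4 to 1250.

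Of 22 endothelial genes 7 rose after iodoform and none fell, beside 15.6% and 11.9% of all genes tested. The median was 0.26, beside 0.06 over all genes tested. The list did not move as one: 4 of the 22 lay below 0 without a call, Calcrl at −0.39, Ednrb at −0.32, Emcn at −0.31 and Tek, the angiopoietin receptor, at −0.21 with all iodoform arrays below all controls, and the general markers Pecam1, Flt1 and Kdr stood at 0.19, 0.08 and 0.03, also not called. Tie1, the endothelial angiopoietin co-receptor, was at 2.78, 3.52, 2.68 and 2.88 against 2.09, 2.56, 1.84 and 2.62 in corn oil. All iodoform arrays lay above all controls, array 3 by little and array 2 far above (0.69 ± 0.17, SE; 1.61-fold; adjusted p = 0.00634). Egfl7, a secreted vessel factor, was at 3.97, 4.42, 3.83 and 4.19 against 3.38, 3.68, 3.05 and 3.83. Its groups met at 3.83, with array 3 the lowest again (0.62 ± 0.14, SE; adjusted p = 0.00426). Bulk lung arrays cannot tell more cells of a type from more RNA per cell.

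Eng, a TGF-beta co-receptor, rose by 0.62, the transcription factor gene Sox18 by 0.65 and the tight-junction gene Cldn5 by 0.53 (adjusted p = 0.0100, 0.0143 and 0.0175), all with overlapping groups and iodoform array 2 the highest. The endothelial nitric oxide synthase gene Nos3 and the guidance receptor gene Robo4 rose by 0.38 and 0.37 (adjusted p = 0.0203 and 0.0259). Among the largest rises of iodoform, named for their size and in none of the endothelial counts, were the gap junction gene Gja4 (0.76), the SMAD inhibitor gene Smad6 (0.68) and the Ras-interacting gene Rasip1 (0.66). Without iodoform array 2 the list median was 0.08 and Tie1 stood at 0.50 (adjusted p = 0.275). Against corn oil arrays 2 and 4 alone the median was 0.06 and Tie1 stood at 0.37, and against arrays 1 and 3 alone they were 0.48 and 1.00. With the beta-actin covariate Tie1 stood at 0.50 (adjusted p = 0.0960) and none of the 22 was called.

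After trichlorofluoromethane none of the 22 endothelial genes was called in limma (66 genes were called over all tested), and the median was −0.04. Tie1 was at 2.37, 2.86, 2.44 and 2.09, within or above the corn oil range, with a difference of 0.16 (adjusted p = 0.627) that was −0.15 against corn oil arrays 2 and 4 alone. Pecam1, a pan-endothelial marker, ran from 3.10 to 4.32 over the 12 arrays.

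Of 9 genes of MHC class II presentation 6 rose after iodoform and none fell, beside 15.6% and 11.9% of all genes tested. All 9 differences lay above 0 (median 0.37, beside 0.06 over all genes tested). Cd74, the invariant chain, and the chains H2-Aa and H2-Ob stood at 0.28, 0.14 and 0.13 and did not pass (adjusted p = 0.0678, 0.429 and 0.540). H2-DMb2, a peptide-exchange chain, was at 2.07, 1.88, 0.83 and 1.42 against 0.76, 1.03, 1.24 and 1.06. Array 3 lay within the corn oil range and the other 3 above it (0.52 ± 0.15, SE; adjusted p = 0.0125). H2-DMa, H2-Eb1, H2-Ab1 and H2-Oa rose by 0.49, 0.46, 0.38 and 0.37 (adjusted p = 0.0114 to 0.0286), and in each array 3 was the lowest of the iodoform arrays. The mean level of the list was 2.04 to 2.79 in iodoform arrays and 1.96 to 2.21 in corn oil. The median stayed between 0.23 and 0.45 without iodoform array 2, with the beta-actin covariate and against either corn oil pair, though none of the 9 was called in the first 2 of these or against arrays 2 and 4.

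B cells carry these molecules, and 4 of 12 genes of B and plasma cells rose with none falling, beside 15.6% and 11.9% of all genes tested. The rises were Cd79a, a chain of the B-cell receptor (0.69), the kinase gene Blk (0.46), the lectin gene Cd22 (0.33) and Mzb1 of plasma cells (0.46), with adjusted p = 0.00638 to 0.0449. Cd79a was at 2.05, 1.76, 0.22 and 1.12 in iodoform and at 0.46, 0.20, 1.23 and 0.49 in corn oil. Iodoform array 3 was low for Cd79a as it was for H2-DMb2, and the part of B-cell number in the MHC class II values was not tested. After trichlorofluoromethane none of the 9 class II genes and none of the 12 B-cell genes was called, with medians of −0.05 and 0.04.

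The interferon response had 4 rises and 1 fall among 18 genes after iodoform, beside 15.6% and 11.9% of all genes tested. These counts were near the shares over all genes and are no result about the list. Irf7, a transcription factor of the response, was at 0.77, 0.95, 0.53 and 0.71 against 0.32, 0.37, 0.19 and 0.37 (0.43 ± 0.10, SE; adjusted p = 0.00439). Oas2, an antiviral oligoadenylate synthetase gene, was at 0.76, 0.98, 0.61 and 0.66 against 0.39, 0.30, 0.27 and 0.27 (0.44 ± 0.10, SE; adjusted p = 0.00479). Both were among the 4 of 18 genes with all iodoform arrays above all controls, against 3.46% of all genes tested. Their differences were of like size against either corn oil pair (0.37 and 0.48 for Irf7, 0.47 and 0.42 for Oas2) and were 0.36 and 0.37 without iodoform array 2, at adjusted p = 0.269 and 0.274.

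Oas1a and Oasl1, of the same family, rose by 0.51 and 0.28 (adjusted p = 0.00899 each). Psmb8 and Psmb9, subunits of the immunoproteasome that interferon induces, rose by 0.64 and 0.63 (adjusted p = 0.00601 and 0.00953). Ifit2, another interferon-stimulated gene, fell by 0.56 (adjusted p = 0.0183), with corn oil arrays 1 and 3 high at 0.80 and 0.99 and arrays 2 and 4 at −0.14 and 0.05. After trichlorofluoromethane none of the 18 was called, and the median was −0.05; Irf7 and Oas2 differed by −0.01 and −0.09, with overlapping groups.

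Of 17 genes of nuclear RNA and splicing, 6 fell after iodoform and 1 after trichlorofluoromethane, with medians of −0.37 and −0.36. Over all genes tested 11.9% and 0.296% fell. The gene Clk1, whose protein phosphorylates SR splicing factors, was at 0.78, −0.12, 2.08 and 1.52 in iodoform, 1.68, 0.83, 0.90 and 2.27 in trichlorofluoromethane, and 2.89, 1.36, 2.80 and 1.55 in corn oil. Corn oil arrays 1 and 3 were the highest of the 12 and arrays 2 and 4 lay among the exposed arrays; the iodoform difference was −1.09 ± 0.34 (SE; adjusted p = 0.0173). Against corn oil arrays 2 and 4 alone the list medians were 0.00 and 0.11, and against arrays 1 and 3 alone −1.0 and −0.91. The falls of this list went with the corn oil pair used. Luc7l3 and Ddx5, a splicing factor and an RNA helicase, fell by 0.87 and 0.78 after iodoform (adjusted p = 0.0192 and 0.0200), and Luc7l3 stood at 0.00 against corn oil arrays 2 and 4.

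The largest falls after iodoform showed the same split among controls. Akr1c14, a steroid and carbonyl reductase gene, was at −0.18, −1.0, 0.44 and 0.00 against 1.58, 0.51, 1.64 and 0.69. All iodoform arrays were below all controls (−1.29 ± 0.28, SE; adjusted p = 0.00426), and the difference was −0.78 against corn oil arrays 2 and 4 alone. Postn (periostin) fell by 1.13 and Ogn (osteoglycin), both matrix proteins, by 1.09 (adjusted p = 0.0113 and 0.0203); against corn oil arrays 2 and 4 alone they stood at −0.57 and 0.11. The nucleolar genes Ncl and Npm1 fell by 1.04 and 0.95 and the translation factor gene Eif2s2 by 1.01 (adjusted p = 0.0192, 0.00976 and 0.0132), at −0.18, −0.35 and −0.33 in that comparison.

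Impdh1, which encodes an enzyme of guanine nucleotide synthesis, was at 2.35, 3.11, 1.95 and 2.17 after iodoform against 1.56, 1.87, 1.39 and 2.03 (0.68 ± 0.15, SE; adjusted p = 0.00426). Ddah2, which encodes a protein linked to nitric oxide metabolism, was at 2.56, 3.23, 2.54 and 2.60 against 1.86, 2.32, 1.78 and 2.48 (0.62 ± 0.13, SE; adjusted p = 0.00371). Array 2 was the highest for both, and all 4 iodoform arrays lay above the controls for Ddah2. Erythroid genes had 2 rises among 6, beside 15.6% of all genes tested, with all 6 differences above 0 (median 0.32). The band 3 gene Slc4a1 rose by 0.62 and Tspo2 by 0.27 (adjusted p = 0.0456 and 0.00931). After trichlorofluoromethane none of the 6 was called, with a median of 0.22 and all 6 again above 0. The part of blood left in the lobe in these values was not tested.

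Beside the 11.9% of all genes tested that fell after iodoform, the falls were 4 of 17 ciliated cell genes (Ccdc39, Mlf1, Ak7 and Ccdc113, −0.64 to −0.34), 3 of 18 club cell genes (Aldh1a7, Scgb1a1 and Aldh1a1, −0.50 to −0.28) and 3 of 19 macrophage genes. The club cell and macrophage counts were near the share over all genes and are no result about those lists. Scgb1a1, the main secretory protein of club cells, was at 6.42, 6.88, 6.48 and 6.61 against 6.85, 6.96, 6.89 and 6.81. Array 2 lay within the corn oil range and the others below (−0.28 ± 0.10, SE; adjusted p = 0.0384), and it stood at −0.11 after quantile normalization (adjusted p = 0.387). The macrophage genes were Atp6v0d2, a vacuolar ATPase subunit (−0.81), the mannose receptor gene Mrc1 (−0.76) and the efferocytosis receptor gene Mertk (−0.45), with adjusted p = 0.00638 to 0.0323. Scgb1a1 lost its call in 6 of the 8 fits that left out 1 array, and Ccdc39 stood at 0.01 against corn oil arrays 2 and 4 alone. None of these 3 lists had a call after trichlorofluoromethane, with medians of 0.03, −0.09 and −0.08.

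Of 14 p53 targets, 1 rose and 4 fell after iodoform, beside 15.6% and 11.9% of all genes tested. Phlda3, an AKT inhibitor gene, was at 2.38, 3.07, 1.99 and 2.15 against 1.59, 1.97, 1.46 and 2.02 (0.64 ± 0.15, SE; adjusted p = 0.00467), with array 3 within the corn oil range. Mdm2, the ubiquitin ligase of p53, Ccng1, Trp53inp1 and Fas fell by 0.39, 0.66, 0.62 and 0.37 (adjusted p = 0.0132 to 0.0277), so the listed targets did not move one way. None of the 14 was called after trichlorofluoromethane.

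**Figure D4:**
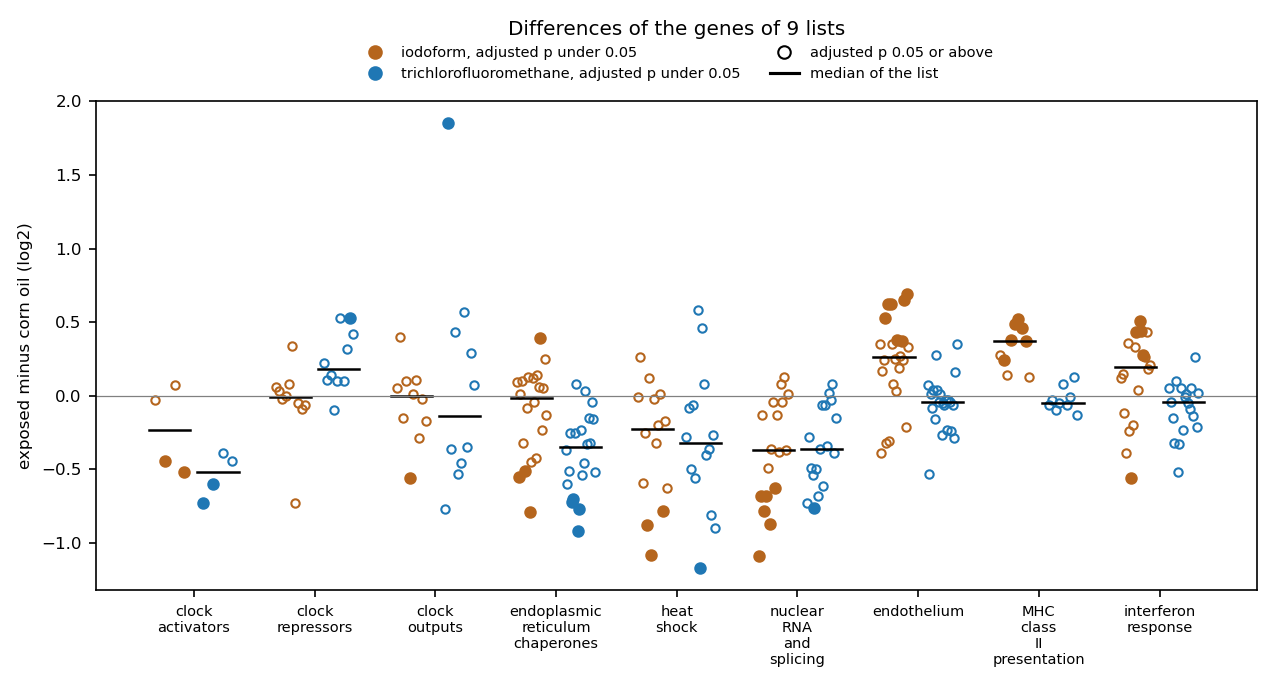
Difference from corn oil (log2) of each tested gene of 9 lists for iodoform and trichlorofluoromethane; filled circles have an adjusted p under 0.05, open circles 0.05 or above, and black bars are list medians. For trichlorofluoromethane 18 of 20 endoplasmic reticulum chaperones lie below 0 (median −0.35), and for iodoform endothelial and MHC class II genes have the highest medians of the 9 lists (0.26 and 0.37).

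Genes that handle halogenated compounds moved little. Of 16 lung enzymes that can metabolise halomethanes, among them cytochromes P450 and glutathione transferases, none was called after trichlorofluoromethane (median 0.04) and 1 fell after iodoform (median 0.00): Fmo2, a flavin monooxygenase, by 0.56 (adjusted p = 0.0430). Cyp2e1, Cyp2f2 and Cyp4b1 differed by 0.20, −0.16 and −0.01 for iodoform and by 0.21, −0.11 and −0.02 for trichlorofluoromethane. Of 27 genes of the NRF2 and glutathione list, 1 rose and 1 fell after iodoform and 1 fell after trichlorofluoromethane, with medians of 0.04 and 0.01. Over all genes tested 15.6% rose and 11.9% fell after iodoform, and 0.192% rose and 0.296% fell after trichlorofluoromethane.

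Of 6 targets of the aryl hydrocarbon receptor, 1 rose and 2 fell after iodoform, beside 15.6% and 11.9% of all genes tested. The rise was near the share over all genes and is no result about the list. Cyp1a1, which the receptor induces, was at 1.21, 1.79, 0.39 and 0.87 against 0.39, 0.55, 0.32 and 0.58 (0.60 ± 0.24, SE; adjusted p = 0.0486), with array 3 in the corn oil range. Cyp1b1 and Tiparp, also targets, fell by 0.43 and 0.49 (adjusted p = 0.0115 and 0.0224). After trichlorofluoromethane Cyp1a1 was at 0.26, 0.26, 0.16 and 0.26, below all corn oil arrays, with a difference of −0.23 (adjusted p = 0.626). Since iodoform carries iodine, 11 genes of thyroid hormone action and iodine handling were listed. After iodoform 1 fell, Klf9, a thyroid and glucocorticoid target, by 0.67 (adjusted p = 0.0210). This count was near the 11.9% of all genes tested that fell and is no result about the list. Klf9 stood at −0.34 against corn oil arrays 2 and 4 alone and at −0.99 against arrays 1 and 3 alone. Without iodoform array 2 it stood at −0.46 (adjusted p = 0.324). None of the 11 was called after trichlorofluoromethane, where Klf9 stood at −0.65 (adjusted p = 0.0942).

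Genes called against corn oil for both compounds numbered 33, which is 0.890% of the iodoform calls and 50.0% of the trichlorofluoromethane calls; as both sets of differences subtract the same 4 controls, this overlap is not a result in itself. Of the 33, 24 fell and 9 rose for both. Beside Max, Kcnj15, Hsp90aa1, Hsp90b1, Dnajc3 and Clock, the falls included Rasa1, a Ras GTPase activator (−0.76 iodoform, −0.98 trichlorofluoromethane), Osmr, the oncostatin M receptor (−0.66, −0.77), the RNA-binding Hnrnpa2b1 (−0.68, −0.76), the splicing regulator Srsf10 (−0.66, −0.66) and Golga4, a Golgi tether (−0.55, −0.60). Osmr was at 1.08, 0.61, 1.40 and 1.35 in iodoform and 1.13, 0.69, 0.86 and 1.33 in trichlorofluoromethane, all below the corn oil arrays at 2.01, 1.55, 2.04 and 1.49. Rasa1 was at 1.69 and 1.71 in corn oil arrays 1 and 3 and at 0.23 and 0.05 in arrays 2 and 4, which lay among the exposed arrays; against the latter its differences were 0.02 and −0.20.

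The shared rises beside Mpst and Tspan4 included Hdac11, a histone deacetylase family gene (0.24 iodoform, 0.35 trichlorofluoromethane), Pmm1, a phosphomannomutase gene (0.31, 0.36), Tmem238 (0.38, 0.51) and the immediate early response gene Ier5l (0.25, 0.35). Mpst was at 0.24, 0.37, −0.03 and −0.04 after iodoform, all above the corn oil arrays (0.33 ± 0.08, SE; adjusted p = 0.00598). Tspan4 was at 2.23, 2.49, 1.67 and 1.61 after iodoform, split as Dbp was, with arrays 3 and 4 in the corn oil range (0.44 ± 0.17, SE; adjusted p = 0.0411).

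**Figure D5:**
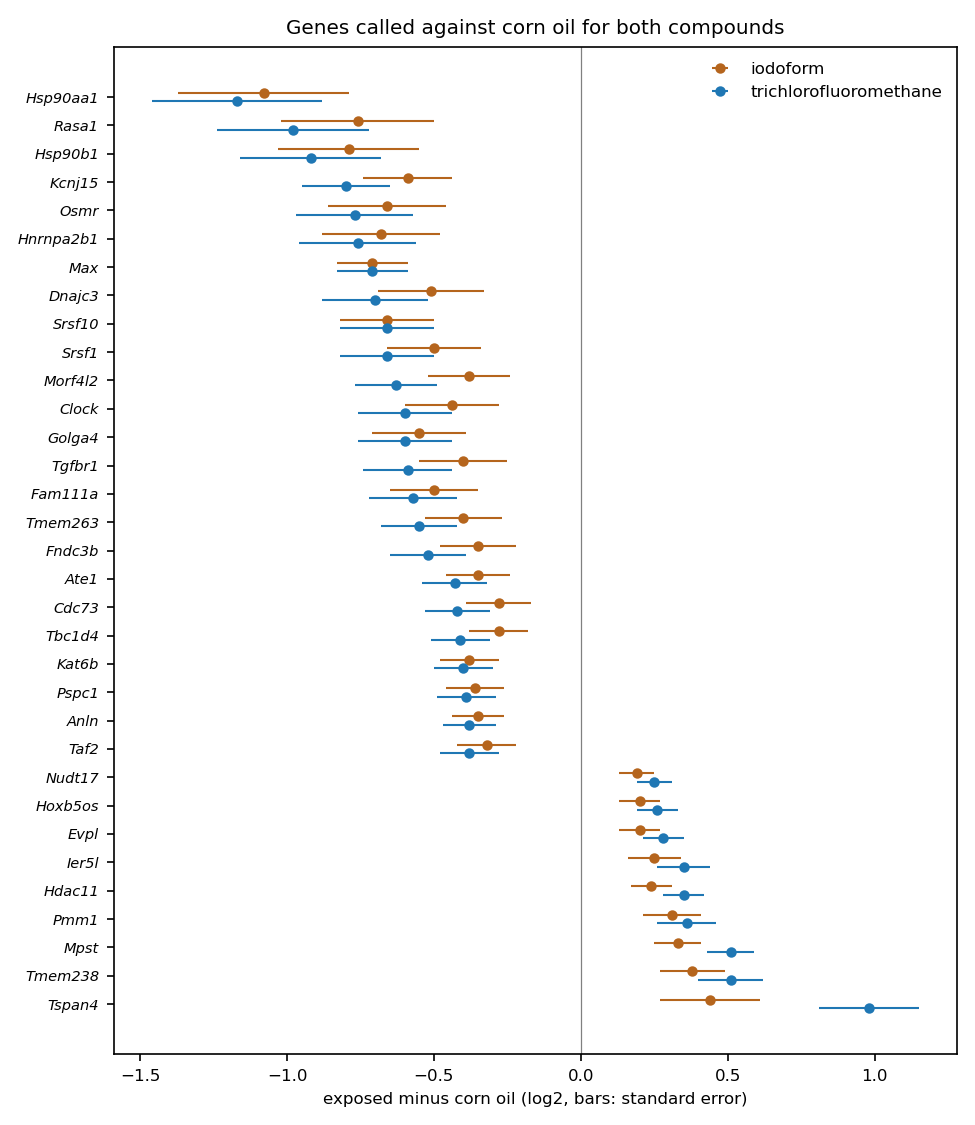
Differences from corn oil (log2; bars, SE) of the 33 genes called for iodoform and for trichlorofluoromethane, ordered by the trichlorofluoromethane value; both compounds are measured against the same 4 corn oil arrays. Hsp90aa1 lies lowest (−1.08 and −1.17) and Tspan4 highest (0.44 and 0.98).

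Among the 34 exposed groups of the series, the ranks of the group means are given as a description with no test. The groups span 4 batches and different routes of dosing. As the deposited values look set to matched controls, the range of the control sets is no independent measure of their spread. Trichlorofluoromethane had the lowest mean of Hspa5 (3.48), Dnajb9 (2.18), Dnajc3 (1.71), Clock (0.19), Kcnj15 (0.94) and Hsp90aa1 (2.89) and the highest of Mpst (0.31). For Dbp it was rank 5 from the highest (1.99; the exposed groups run from −0.65 to 3.68 and the 14 control sets from −0.54 to 0.83). It was rank 4 for Per2 (0.68), 31 for Arntl (0.11) and 26 for Eln (1.53), so Eln was not among the lowest. For iodoform Dbp, Arntl and Tspan4 were rank 18, 11 and 9. Next to trichlorofluoromethane, iodoform was rank 33 for Dnajc3, Clock, Kcnj15 and Hsp90aa1 and rank 2 for Mpst. It was rank 31 for Hspa5 and Dnajb9. Iodoform had the highest mean of Tie1 (2.96) and Egfl7 (4.11), for which trichlorofluoromethane was rank 5 and 2. For Max both compounds stood at −0.49, the 2 lowest of the 34, with control sets from −0.05 to 0.36.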

How the data were processed

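The authors deposited log values per Affymetrix probe set, taken here as log2 from their range; the log base, the normalization and the centring are not given in the sources used here. The 12 arrays share 1 array mean (0.002) that no other set has, so values look set to matched controls. Of 45101 probe sets, 34958 have 1 gene symbol in the platform annotation, 932 several and 9211 none. Each of 18194 genes was its probe set of highest mean, and 13524 with at least 3 arrays above the median of all values (−0.386) were tested. limma 3.58.1 (R 4.3.3), tested on simulated data, was fitted with 1 mean per group on all arrays of the series. The simulated noise was independent between genes and arrays. It held no differences shared by whole arrays, such as those between the corn oil pairs, so it cannot measure false calls under them. Array measures were compared by two-sided exact permutation tests. Alternatives changed the normalization, filter, probe sets, arrays and controls. Genes named are the largest calls per compound, genes called for both and up to 5 per list. The compounds, the 37 gene lists and the genes named were chosen with earlier results of these data known. Promoter sequences are RefSeq's (GRCm38.p6). Array numbers follow accession order and pair no animals.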

Additional observations from a re-analysis of the deposited data

Results flagged for a closer look

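In groups of 4 arrays, an array was noted when its gap to the nearest other array was over 0.829 of the range of the group. This held in 10 of 327 groups checked (3.06%), where chance gives about 5%. In iodoform, Nampt was low in 1 array (0.02, the others 0.90 to 1.00), and Cldn5 (5.46, the others 4.62 to 4.75) and Ddah2 (3.23, the others 2.54 to 2.60) were high in 1. In trichlorofluoromethane, Tspan4 was low in 1 array (1.84, the others 2.68 to 2.85), as were H2-Ab1 (3.11, the others 3.34 to 3.38), Mzb1 (0.34, the others 0.67 to 0.72) and Cyp1a1 (0.16, the others at 0.26). Tmem238 (2.14, the others 1.82 to 1.87) and Golga4 (0.65, the others 0.21 to 0.25) were high in 1 trichlorofluoromethane array. In corn oil, Lum was high in 1 array (0.80, the others 0.06 to 0.11).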

How the results depend on the processing

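The counts of genes called depended on the arrays and the spread used. For iodoform (3708) they were 5606 with the 3 control sets of the batch, 6420 with the 6 corn oil sets, 15 with the beta-actin covariate, 1 with the batch alone and 0 with the 8 arrays alone (limma; 1665 at an unadjusted p under 0.05), and 2 to 5364 as each array was left out; against corn oil arrays 1 and 3 or 2 and 4 alone, chosen after seeing the data, 6027 and 1. For trichlorofluoromethane (66) they were 2325, 3294, 17, 0 (1491 at an unadjusted p under 0.05) and 137 in the same order, 39 with the mean of probe sets, 35 with no filter, 591 after quantile normalization, 4 to 1250 as each array was left out, and 2715 and 10 against the pairs; the cause was not tested. Because the deposited values look set to matched controls, the fits with other control sets are no independent check. The beta-actin difference for iodoform ran from −0.39 to −0.26 and the array SD difference for trichlorofluoromethane from −0.07 to −0.04 as arrays were left out, each at exact permutation p = 0.0571, the lowest that 3 against 4 arrays can give; without iodoform array 2 the array SD difference of iodoform was −0.05. Signs were followed for the named genes called for a compound and for Dbp, Per2, Hspa5 and Tie1. They turned for iodoform in Per2 (0.05 against arrays 1 and 3, and −0.16 to 0.00 as each array was left out) and in Rasa1 (0.02), Ogn (0.11), Luc7l3 (0.00) and Ccdc39 (0.01) against arrays 2 and 4, and for trichlorofluoromethane in Tie1 (−0.15 against arrays 2 and 4). Named genes without a call turned too. For trichlorofluoromethane Ogn went from −0.96 to 0.24, Ncl from −0.76 to 0.10 and Luc7l3 from −0.68 to 0.19 against arrays 2 and 4. For iodoform Eln went from 0.25 to −0.03 without array 2. No paired analysis was possible because the labels give no replicate numbers that tie exposed to control animals. With 4 arrays per group, their number limits the precision.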
